A study of Homo sapiens with 6 samples.

Results

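The clustered protocadherins are cell adhesion proteins of the cadherin family, encoded by 3 neighbouring gene clusters on chromosome 5 that are named alpha, beta and gamma. In the alpha and gamma clusters each first exon has its own promoter and is spliced to constant exons that the whole cluster shares, while a beta gene is usually a single exon without a shared part. In neurons each cell uses a small choice of these promoters, and the resulting set of surface proteins lets a cell tell its own branches from those of other cells. The choice rests on CTCF and cohesin, which join a promoter to a distant enhancer, and the unused promoters are DNA-methylated. In several cancers the promoters of these clusters are known to gain DNA methylation together.

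The members were the genes whose NCBI Gene ID has a current symbol of the PCDHA, PCDHB, PCDHGA, PCDHGB or C-type pattern. This rule used no measured value, but it was chosen with earlier results of these data known. There were 43 such genes among 16623 genes in the files, with 6 in the alpha cluster, 15 in the beta cluster and 22 in the gamma cluster. The gamma genes were 12 of type A, 7 of type B and 3 of C-type, and 2 of the alpha genes were of C-type. The RefSeq gene table held 54 matching symbols, and the other 11 (10 alpha genes and PCDHB1) were not analysed here. In hg19, the build named in the submitters' processing notes, the members ran from 140165721, the start of PCDHA1, to 140892548, the end of PCDHGB7, all on the plus strand of chromosome 5. In the reference annotation, 14 of the 15 beta genes had 1 exon in every transcript, and PCDHB6 also had a transcript with 2 exons.

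The cells were MDA-MB-231, a human cell line of triple-negative breast cancer. They received PCI-24781, a hydroxamate inhibitor of histone deacetylases, at 100 nM or 200 nM for 24 h or 48 h, or the solvent DMSO for the same times. Each of the 6 conditions was 1 library of bulk RNA, so no value below has a replicate, an SD or a test, and a difference between 2 libraries is a difference between those libraries. Levels are FPKM, fragments per kilobase of transcript scaled to the mapped fragments of the library, which is a scale per length and allows genes to be set beside each other. In bulk RNA, fewer cells with a transcript and less of it per cell cannot be told apart.

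The depth read from the steps between low values was about 15700000 to 18100000 fragments per library, at which 3 fragments on a transcript of 3 kb equal an FPKM of 0.055 to 0.064. The line's markers were present, with VIM, the mesenchymal filament protein, at 1629 to 2053 FPKM, and of 5 genes listed as low in this line ESR1 and PGR, the hormone receptors, were at most 0.04 FPKM and CDH1, epithelial cadherin, was under 0.5 FPKM, while ERBB2, the HER2 receptor, was at 13.16 to 21.36 FPKM and EPCAM, an epithelial adhesion protein, at 2.26 to 4.70 FPKM. Among 10 neuron markers, TUBB3 was at 56.57 to 92.74 FPKM, and the summed level of the list lay between 57.44 and 101.37. MAP2 reached 3.99 FPKM at 200 nM 48 h, and SYP reached 6.40 FPKM at 200 nM 24 h. They had 0.11 and 0.65 FPKM in DMSO 24 h, and 1.94 and 0.73 FPKM in DMSO 48 h. The other 7, among them the neuron-defining RBFOX3, STMN2, NEFL, NEFM, ELAVL3 and ELAVL4, stayed at or below 0.19 FPKM. The DMSO 48 h library stood apart from DMSO 24 h: 286 genes were at least 2-fold higher on the log2(FPKM + 1) scale (2.49%) and 15 were lower (0.131%). Of 146 genes called higher at both doses of 24 h, 142 were higher in the library labelled DMSO 48 h than in the one labelled 100 nM 48 h, and 94 and 20 of them were called higher in these libraries than in DMSO 24 h. PCDH1 had 3.08 and 0.15 FPKM in them. The order in these genes goes against the labels, and whether the 2 libraries were exchanged cannot be told from the data. Names follow the labels throughout, and with an exchange each difference of 100 nM 48 h from DMSO 48 h would turn its sign, and those of 200 nM 48 h would be read from the other library. The main 48 h values are therefore also given against DMSO 24 h, a comparison that also differs in time.

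The sequence upstream of a start site is shown first, because most promoters of these clusters carry a short conserved element, known to be bound by CTCF, that takes part in the promoter choice. RefSeq start sites on GRCh38.p14 were available for 38 of the 43 members (none for PCDHA13, PCDHB6, PCDHB11, PCDHGA12 and PCDHGC5). Each window held 250 bases before and 50 bases after the start. The 8-base string TGGCGCTG stood in the window of 12 of 13 beta members, on either strand, and was missing from PCDHB14. Among all 35116 promoter windows, 1.91% held it. The string GCCGCTGT stood in the windows of 11 of 20 gamma members and in 1.63% of all windows. It was in none of the 13 beta members, and TGGCGCTG was in 1 of the 20 gamma members. The 5 alpha members with a window held neither string. Both strings were picked because they were frequent in these windows, so the shares describe the members and are no test. Both contain CGCTG, and neither can overlap the other at the same CGCTG. Below are the 250 bases before the start of PCDHB10 and PCDHB13 in the beta cluster and of PCDHGB1, PCDHGB7 and PCDHGC3 in the gamma cluster, whose levels are described most fully. The found string is in capitals.

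PCDHB10 (chr5:141192103-141192352, plus strand): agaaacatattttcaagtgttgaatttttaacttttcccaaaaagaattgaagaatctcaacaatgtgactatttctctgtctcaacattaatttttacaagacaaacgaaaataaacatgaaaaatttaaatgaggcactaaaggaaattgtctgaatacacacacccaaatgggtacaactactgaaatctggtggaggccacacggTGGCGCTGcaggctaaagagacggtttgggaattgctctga
PCDHB13 (chr5:141213669-141213918, plus strand): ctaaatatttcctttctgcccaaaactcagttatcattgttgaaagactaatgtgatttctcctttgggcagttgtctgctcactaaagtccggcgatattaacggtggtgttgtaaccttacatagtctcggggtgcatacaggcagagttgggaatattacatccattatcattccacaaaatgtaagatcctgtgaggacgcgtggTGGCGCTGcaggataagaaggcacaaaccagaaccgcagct
PCDHGB1 (chr5:141349849-141350098, plus strand): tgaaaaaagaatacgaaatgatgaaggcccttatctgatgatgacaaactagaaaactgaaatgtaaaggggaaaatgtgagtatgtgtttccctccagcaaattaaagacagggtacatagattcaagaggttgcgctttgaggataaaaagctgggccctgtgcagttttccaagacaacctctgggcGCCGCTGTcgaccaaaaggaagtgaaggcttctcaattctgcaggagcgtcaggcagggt
PCDHGB7 (chr5:141417427-141417676, plus strand): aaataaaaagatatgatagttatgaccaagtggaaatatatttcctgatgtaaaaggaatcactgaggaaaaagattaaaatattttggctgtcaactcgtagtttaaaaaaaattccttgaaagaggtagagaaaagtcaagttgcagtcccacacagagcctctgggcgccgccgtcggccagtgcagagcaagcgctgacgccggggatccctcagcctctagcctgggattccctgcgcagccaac
PCDHGC3 (chr5:141475716-141475965, plus strand): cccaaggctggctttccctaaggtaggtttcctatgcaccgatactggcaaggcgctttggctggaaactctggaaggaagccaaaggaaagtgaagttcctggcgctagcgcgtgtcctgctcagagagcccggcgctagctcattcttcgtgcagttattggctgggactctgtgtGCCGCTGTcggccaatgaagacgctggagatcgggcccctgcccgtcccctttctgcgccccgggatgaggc

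The window of PCDHGB7 held neither string, which says only that these letters are absent there. The stretches around the string in 4 further members are shown to let the sequence beside it be compared within the beta and gamma clusters. In PCDHB8 the string begins at the annotated start, so it is not upstream sequence, and only the string and the stretch before it are shown.

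PCDHB8 (chr5:141177770-141177797, plus strand): gatcctgtgaggacccgtggTGGCGCTG
PCDHB9 (chr5:141187067-141187114, plus strand): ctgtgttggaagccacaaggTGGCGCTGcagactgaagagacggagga
PCDHGA1 (chr5:141330397-141330444, plus strand): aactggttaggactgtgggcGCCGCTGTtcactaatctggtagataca
PCDHGA10 (chr5:141412925-141412972, plus strand): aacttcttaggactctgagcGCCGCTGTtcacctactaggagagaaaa

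The windows also differed in base composition. The C-type windows (5 windows of 4 genes) had 59.0% to 66.0% G and C, with a median of 62.3%, and a median of 23 CpG dinucleotides. The other 38 windows of members had a median of 41.0% and 7 CpG dinucleotides. All windows of the table had medians of 58.7% and 14.

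The members were expressed at low levels, with a median highest value of 0.26 FPKM. The highest of the 6 values was at least 1 FPKM in 9 members (5 beta and 4 gamma), between 0.1 and 1 FPKM in 17, and below 0.1 FPKM in the other 17. In 16 members at least 1 library was listed at 0. The alpha cluster was the lowest, and 5 of its 6 genes stayed below 0.1 FPKM in every library. These were PCDHA1, PCDHA4 and PCDHA13 and the C-type genes PCDHAC1 and PCDHAC2. PCDHA9 was the exception, with 0.10, 0.19 and 0.24 FPKM in DMSO, 100 nM and 200 nM at 24 h and 0.23, 0.11 and 0.15 FPKM at 48 h.

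**Figure D1:**
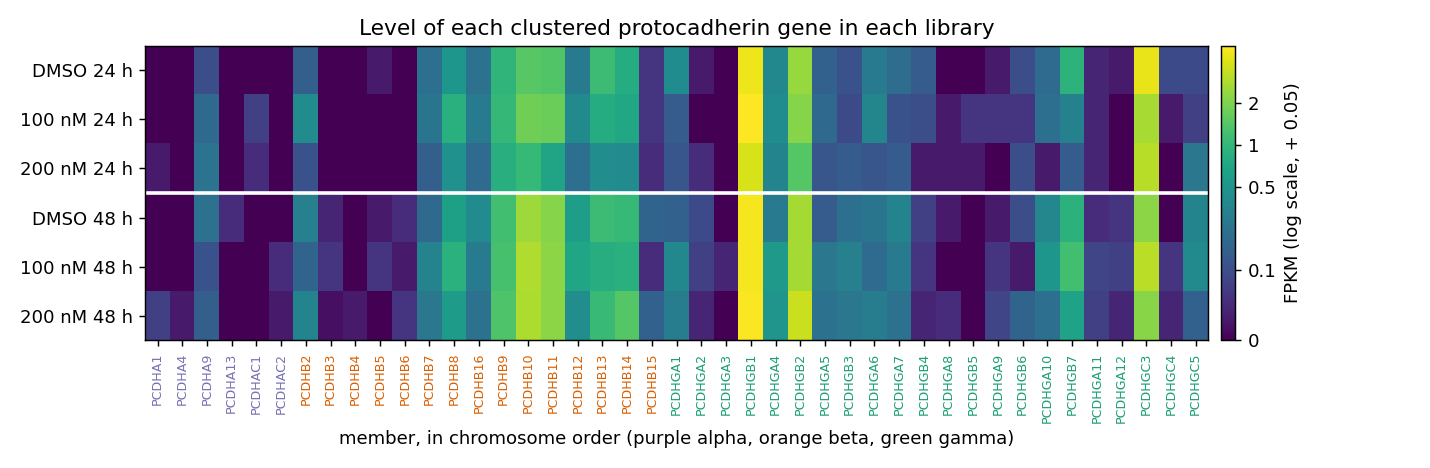
FPKM of the 43 members (columns, in chromosome order, with the symbol coloured by cluster) in the 6 libraries (rows), as a colour on a log scale after adding 0.05. The bright columns are PCDHGB1, PCDHGB2 and PCDHGC3 in the gamma cluster and the run from PCDHB8 to PCDHB14 in the beta cluster, where PCDHB10 is the highest beta gene in all 6 libraries. PCDHGB7 is as bright in some libraries, with up to 1.18 FPKM.

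In the beta cluster the signal came from 1 stretch of neighbouring genes. The 8 genes from PCDHB8 to PCDHB14, with PCDHB16 lying among them, held 91.5% to 93.9% of the summed beta FPKM in each library. PCDHB10 and PCDHB11 alone held 37.6% to 47.5%. PCDHB10 had 1.46 FPKM in DMSO, 1.79 at 100 nM and 1.03 at 200 nM at 24 h, and 2.49, 2.80 and 2.77 FPKM at 48 h. PCDHB11 had 1.38, 1.71 and 0.69 FPKM at 24 h and 2.12, 2.19 and 2.18 FPKM at 48 h. Both genes were higher in all 3 libraries of 48 h than in any library of 24 h, DMSO included. At the other end, PCDHB3, PCDHB4, PCDHB5 and PCDHB6 stayed at or below 0.05 FPKM in every library.

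In the gamma cluster 3 genes carried most of the signal. PCDHGB1, PCDHGB2 and PCDHGC3 together held 69.5% to 83.2% of the summed gamma FPKM. PCDHGB1, the most abundant member by mean, was the steadiest of them, with 4.39, 4.92 and 3.69 FPKM at 24 h and 4.64, 4.64 and 4.78 FPKM at 48 h. PCDHGC3, a C-type gene whose protein is known to bind AXIN1 and dampen Wnt signalling, had 4.22, 2.68 and 3.0 FPKM at 24 h and 2.18, 3.01 and 2.15 FPKM at 48 h. Its highest value was thus the DMSO 24 h library, and its share of the gamma sum ran from 15.8% in 200 nM 48 h to 30.7% in 200 nM 24 h. The other C-type genes were low. PCDHGC4 stayed at or below 0.09 FPKM, and PCDHGC5 had 0.09, 0.07 and 0.26 FPKM at 24 h and 0.35, 0.40 and 0.16 FPKM at 48 h.

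The shared sequence limits how far single members can be told apart. Of the distinct 50-base strings in a member's annotated transcripts, the share also found in another clustered protocadherin was 30.9% to 71.1% in the gamma cluster (median 44.2%), 22.3% to 57.7% in the alpha cluster (median 43.7%) and 9.6% to 45.8% in the beta cluster (median 14.5%). PCDHB8 had the 45.8%, of which the largest single part, 33.0% of its strings, was shared with PCDHB13. PCDHGB1 and PCDHGB2 shared 51.1% of the strings of each. The notes name RSEM, which divides fragments that match several transcripts by estimation, so fragments from constant exons can be credited to any member of a cluster. The part of this in each member's value was not tested, and sums over a cluster are given beside the single genes for that reason.

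The first question was whether the inhibitor changed these genes against DMSO of the same time. By the stricter rule, a 2-fold difference in log2(FPKM + 1) with at least 1 FPKM in either library, no member was called in any of the 4 comparisons. At 100 nM 24 h, 0 of 7 members with enough signal were called, where the background over 11475 genes was 1.35% raised and 0.131% lowered. At 200 nM 24 h it was 0 of 6, against 4.49% higher and 1.48% lower. At 100 nM 48 h it was 0 of 9, against 0.0608% higher and 0.408% lower, and at 200 nM 48 h 0 of 8, against 0.206% higher and 0.06% lower. With so few members past the level limit, a count of 0 lies near these background shares. PCDHB13 at 200 nM 24 h, with 1.13 FPKM in DMSO and 0.43 FPKM in the treated library, was called lower only when a smaller number (0.1 or 0.01) was added before the logarithm or when values were put on the TPM scale.

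A rule for low levels took in more members: a 2-fold difference in log2(FPKM + 0.05) with at least 0.1 FPKM in either library. At 200 nM 24 h, 25 members qualified, of which 5 were lower (PCDHB13, PCDHGA1, PCDHGB4, PCDHGA10 and PCDHGB7) and PCDHGC5 was higher. The background over the 14243 genes that qualified was 3.15% in the lower direction and 12.8% in the higher one. At 100 nM 24 h, 2 of 24 members were lower (PCDHGA1 and PCDHGB7; background 1.42%) and PCDHB2 was higher (background 7.57%). At 100 nM 48 h, 2 of 25 were lower (PCDHB15 and PCDHGB6; background 3.68%) and PCDHGA1 was higher (background 1.31%). At 200 nM 48 h none of 25 was called in either direction, where the background was 1.22% lower and 3.99% higher. Between the DMSO libraries, 48 h against 24 h, PCDHGA1 was lower (1 of 26; background 1.49%) and PCDHB15 and PCDHGC5 were higher (background 8.76%), so that PCDHGA1 was at a log2 difference of -1.16 between the controls, beside -1.31 and -1.47 for the treated libraries of 24 h. Some of these differences rest on few fragments: PCDHGB4, with 0.14 FPKM in DMSO 24 h and 0.02 FPKM at 200 nM, corresponded to about 12 and 2 fragments.

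Without a size limit, the members leaned downward at 200 nM 24 h. Of the 25 qualifying members, 21 were below DMSO 24 h, which is 84.0%, and 3 were above. Of all 14243 qualifying genes, 44.1% were below, and of the 5316 genes with a highest value between 0.1 and 5 FPKM, the range of the members, 29.9% were below. All 10 qualifying beta genes and 11 of 14 gamma genes were on the lower side, and PCDHA9, PCDHGB3 and PCDHGC5 were on the higher side. The median log2 change of the qualifying members was -0.43, with -0.38 in the beta cluster and -0.47 in the gamma cluster, beside 0.07 over all qualifying genes and 0.38 over genes in the same range of levels. These members can share fragments, promoter elements and a chromosome region and are not independent of each other.

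**Figure D2:**
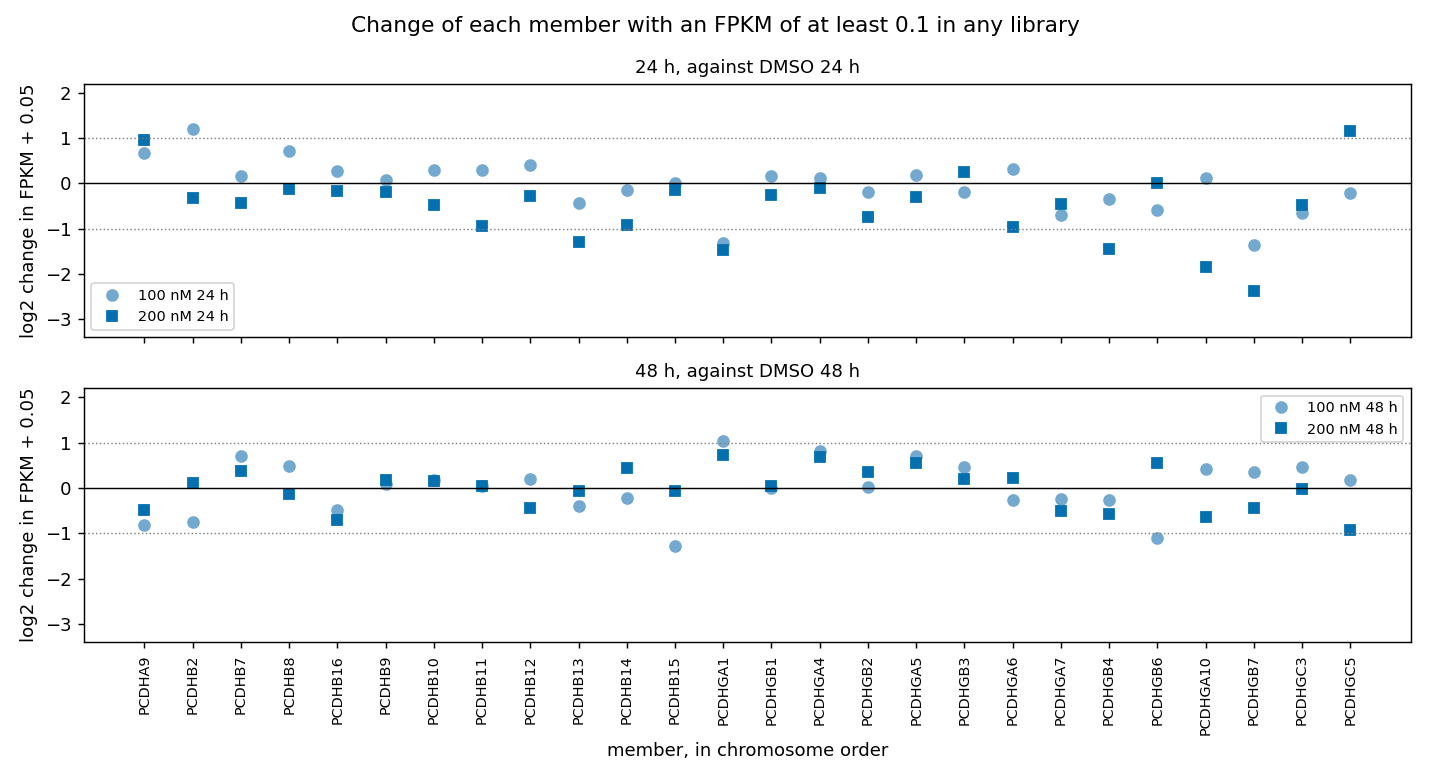
log2 change in FPKM + 0.05 against DMSO of the same time for the 26 members with at least 0.1 FPKM in any library, in chromosome order, at 24 h (upper panel) and 48 h (lower panel). Circles are 100 nM, squares are 200 nM, and dotted lines mark a 2-fold change. In the upper panel the squares lie below 0 for all beta genes drawn, and PCDHGB7 has the lowest square at -2.37, while the points of the lower panel lie on both sides of 0.

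The other comparisons did not show this lean to the same degree. At 100 nM 24 h, 10 of 24 members (41.7%) were below DMSO, against 44.5% of all qualifying genes and 31.3% of genes in the same range of levels, and 8 of 10 beta genes were above it. At 100 nM 48 h, 9 of 25 (36.0%) were below, against 54.1% and 59.6%. At 200 nM 48 h it was 11 of 25 (44.0%), against 45.5% and 34.7%. Read against DMSO 24 h, 6 of 25 members (24.0%) were below at 100 nM 48 h, where the background was 49.0%, and 5 of 26 (19.2%) at 200 nM 48 h, where it was 45.2%. The share below among genes in the same range of levels was not computed against DMSO 24 h. The members' median log2 change was 0.328 at 100 nM 48 h, beside 0.122 over genes in that range. At 200 nM 48 h it was 0.385, beside 0.398, so genes of similar level were as much higher there. The differences between these comparisons were not tested, since each rests on 1 library a condition.

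The sums over each cluster, which depend less on how fragments were divided among its members, were compared next. The beta sum was 7.22 FPKM in DMSO, 8.34 at 100 nM and 4.58 at 200 nM at 24 h, and 10.35, 10.50 and 10.86 FPKM at 48 h. The 200 nM 24 h library was thus 0.634 times DMSO 24 h (log2 ratio -0.66) and 0.549 times the 100 nM library of the same time. The 3 libraries of 48 h lay close together, at log2 ratios of 0.02 and 0.07 to DMSO 48 h for the 2 doses. Against DMSO 24 h the same 48 h libraries were at 0.54 and 0.59, and DMSO 48 h itself was at 0.52, so the 48 h beta levels were higher with and without the inhibitor. The gamma sum was 14.22, 11.96 and 9.76 FPKM at 24 h, lower at each dose step (log2 ratios -0.25 and -0.54), and 12.87, 14.80 and 13.64 FPKM at 48 h (0.20 and 0.08). Against DMSO 24 h the gamma sums of 48 h were at 0.06 and -0.06. The alpha sum stayed between 0.10 and 0.30 FPKM and came mainly from PCDHA9.

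**Figure D3:**
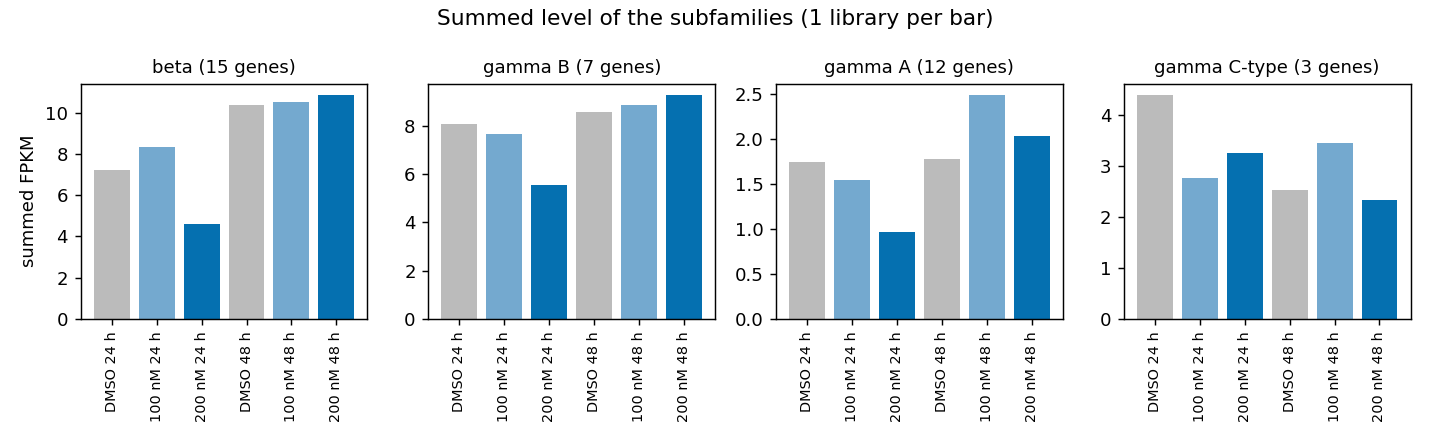
Summed FPKM of the beta genes and of the A, B and C-type gamma genes in the 6 libraries (1 bar per library, grey DMSO, light blue 100 nM, dark blue 200 nM, axes from 0 and different in each panel). The 200 nM 24 h bar is the lowest for beta (4.58), gamma B (5.54) and gamma A (0.96), whereas for the C-type genes DMSO 24 h is the highest (4.40) and 200 nM 48 h the lowest (2.34).

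Within the gamma cluster the types differed in their order. The type B genes summed to 8.08, 7.65 and 5.54 FPKM at 24 h and 8.56, 8.85 and 9.27 FPKM at 48 h. The type A genes summed to 1.74, 1.54 and 0.96 FPKM at 24 h and 1.78, 2.49 and 2.03 FPKM at 48 h. The C-type genes summed to 4.40, 2.77 and 3.26 FPKM at 24 h, so that both treated libraries were lower than DMSO and the 200 nM library was not the lowest. At 48 h the C-type sum was 2.53, 3.46 and 2.34 FPKM. The DMSO 48 h value lay 0.80 below DMSO 24 h on the log2 scale, a larger difference than that between either treated library and DMSO at 24 h (0.67 and 0.43 lower). The log2 ratios of 48 h were 0.45 and -0.11 against DMSO 48 h and -0.35 and -0.91 against DMSO 24 h, so the sign at 100 nM turned with the reference, as it did for PCDHGC3 alone (0.46 and -0.48).

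At 24 h, 6 of 25 qualifying members were lower at each dose step and 1 was higher at each. The share over all genes was not computed, so the orders of single members are given as values only. PCDHGB7 had 0.93, 0.33 and 0.14 FPKM at 24 h, which corresponds to about 47 to 80, 16 to 27 and 7 to 12 fragments, depending on the transcript length used. At 48 h it had 0.91, 1.18 and 0.66 FPKM. Its 24 h values were lower at each dose step (log2 changes of -1.37 and -2.37 against DMSO), and the 48 h values did not. PCDHGA1, the first gene of the gamma cluster, had 0.42, 0.14 and 0.12 FPKM at 24 h and 0.16, 0.38 and 0.30 FPKM at 48 h. DMSO 24 h was its highest value and DMSO 48 h was among its 3 lowest, so both doses were lower than DMSO at 24 h and higher at 48 h, and against DMSO 24 h both 48 h doses were lower. PCDHGB2 had 2.41, 2.11 and 1.43 FPKM at 24 h, lower at each dose step, and 2.62, 2.64 and 3.37 FPKM at 48 h.

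PCDHB13 and PCDHB14, neighbours at the end of the beta stretch, were also lower at each dose step at 24 h. PCDHB13 had 1.13, 0.82 and 0.43 FPKM, or about 72, 50 and 26 fragments over its listed span of 3503 bases. Its annotated transcript has 5061 bases, for which these fragment numbers would be larger. At 48 h PCDHB13 had 1.11, 0.83 and 1.06 FPKM. PCDHB14 had 0.82, 0.74 and 0.41 FPKM at 24 h and 1.04, 0.88 and 1.43 FPKM at 48 h. In contrast, PCDHB8, PCDHB9, PCDHB10, PCDHB11 and PCDHB12 were higher at 100 nM than in DMSO at 24 h and lowest at 200 nM. PCDHB8 had 0.51, 0.87 and 0.46 FPKM at 24 h and 0.63, 0.90 and 0.57 FPKM at 48 h, so its 100 nM library was the highest at each time. PCDHB9, at 0.84 to 1.34 FPKM, and PCDHGA4, at 0.29 to 0.55 FPKM, stayed within 2-fold of DMSO of the same time at both doses. PCDHB12 had 0.28, 0.39 and 0.22 FPKM at 24 h and 0.60, 0.70 and 0.43 FPKM at 48 h. PCDHGA10 had 0.20, 0.22 and 0.02 FPKM at 24 h, the last about 2 fragments, and 0.37, 0.51 and 0.22 FPKM at 48 h.

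**Figure D4:**
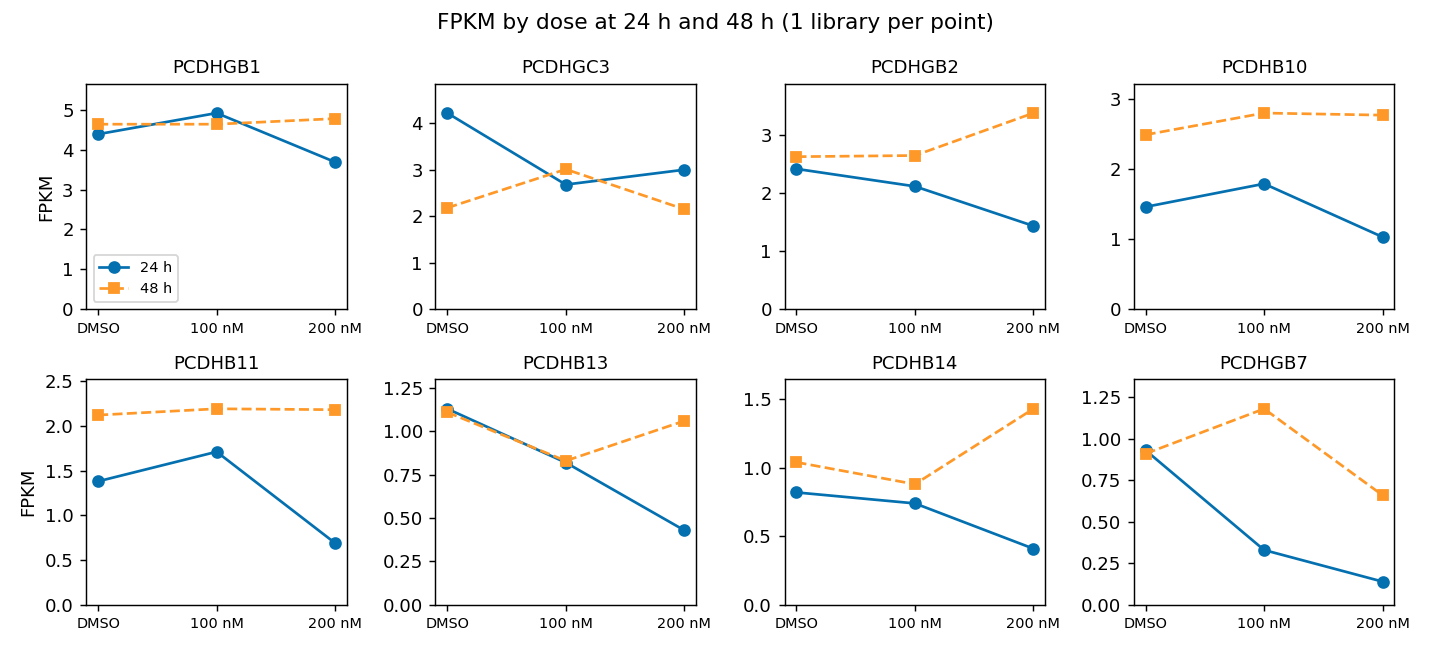
FPKM of 8 members (PCDHGB1, PCDHGC3, PCDHGB2, PCDHB10, PCDHB11, PCDHB13, PCDHB14 and PCDHGB7) in DMSO, 100 nM and 200 nM at 24 h (circles, solid line) and 48 h (squares, dashed line), with 1 library per point and axes from 0. At 200 nM the 24 h point lies below the 48 h point in every panel except PCDHGC3, where it is higher (3.0 against 2.15).

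Among the 13 members that reached 0.5 FPKM in any library, 11 had their lowest value in the 200 nM 24 h library, 1 in DMSO 48 h and 1 in 200 nM 48 h. Of all 12746 genes that reached 0.5 FPKM, 22.3% had their lowest value in that library, and of the 3561 of them that stayed under 5 FPKM, 14.7% did. Among the 24 h libraries, 19 of 25 qualifying members had their lowest value at 200 nM, with all 10 beta genes among them, beside 35.6% of all qualifying genes and 21.3% of those under 5 FPKM. At 48 h, 8 of 25 members were lowest and 7 highest at 200 nM. The share over all genes was not computed for 48 h, so this count is not set against that of 24 h. The 200 nM 24 h library had about 17400000 fragments and 1130 genes listed at 0, beside 18100000 fragments and 1708 genes in DMSO 24 h, and the part of depth in these values was not tested.

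The genes around the clusters were next compared. Of 30 neighbours within 500 kb on either side or between the clusters, 25 passed the level limit of the stricter rule at 100 nM 24 h. Of these 25, 1 was called higher (background 1.35%). At 200 nM 24 h, 26 passed and 2 were called higher (background 4.49%). At 48 h, 26 passed at each dose, and PCDH1 alone was called. It was lower at 100 nM (background 0.408%) and higher at 200 nM (background 0.206%). These small counts were not tested against the background shares. PCDH1, a protocadherin outside the clusters with its own gene, had 0.08, 3.21 and 10.16 FPKM at 24 h and 3.08, 0.15 and 12.53 FPKM at 48 h. At 200 nM 24 h its difference from DMSO thus had the opposite sign to that of most clustered members. RELL2, a member of the RELT family, had 2.04, 3.75 and 5.43 FPKM at 24 h and 2.65, 2.38 and 2.68 FPKM at 48 h. HDAC3, the class I histone deacetylase encoded beyond the gamma cluster, had 59.29, 58.69 and 80.15 FPKM at 24 h and was not called. The neighbours' median log2 change in FPKM + 1 was 0.00 at 200 nM 24 h, with 13 of 26 tested genes higher and 13 lower.

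The genes known to set the promoter choice stayed within 2-fold. None of 11 genes for CTCF, cohesin and its regulators was called by either rule in the 4 comparisons. CTCF, the protein that binds the promoter element, had 22.82, 22.82 and 19.99 FPKM at 24 h. At 200 nM 24 h, 9 of the 11 genes were below DMSO, with a median log2 change in FPKM + 1 of -0.30, beside 52.6% below among all genes of at least 5 FPKM. At 100 nM 24 h it was 7 of 11, with a median of -0.14, beside 52.5% of such genes. At 200 nM 48 h it was 8 of 11, with a median of -0.08, beside 52.3%. At 100 nM 48 h it was 5 of 11, with a median of 0.00, beside 50.9% of such genes. STAG1, a cohesin subunit, went from 11.91 FPKM in DMSO to 7.20 at 200 nM, and RAD21, the cohesin ring's closing subunit, from 172.29 to 139.53 FPKM. None of 12 genes linked to silencing of the clusters was called either. At 200 nM 24 h, 11 were below DMSO, with a median of -0.23, beside the 52.6% given above. At 100 nM 24 h, 10 were below, and at 200 nM 48 h 6 were, beside the 52.5% and 52.3% given above. At 100 nM 48 h, 4 were below and 8 above DMSO, beside the 50.9% given above. Of the 12, DNMT1, the maintenance DNA methyltransferase, had 79.25, 68.38 and 52.18 FPKM at 24 h. UHRF1, which guides it to replicated DNA, had 38.56, 33.74 and 22.39 FPKM. SMCHD1, a chromatin protein that keeps the clusters silent, had 25.49, 23.28 and 19.99 FPKM. Both DNMT1 and UHRF1 were also lower in DMSO 48 h (53.64 and 22.73 FPKM) than in DMSO 24 h.

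Downstream of the proteins, none of 8 genes of the cleavage machinery was called. ADAM10, the surface protease that cuts gamma protocadherins, had 35.37, 43.75 and 49.22 FPKM at 24 h, and NCSTN, a subunit of the gamma-secretase that then releases the cytoplasmic part, had 54.04, 40.22 and 33.00 FPKM. Of 13 cytoplasmic partners, 11 passed the stricter level limit, and 1 was called higher at both doses of 24 h (background 1.35% and 4.49%). This was CYFIP2, a subunit of the WAVE complex that joins protocadherins to actin, with 0.58, 3.82 and 6.80 FPKM at 24 h and 2.23, 1.09 and 3.73 FPKM at 48 h. It was higher by 1.61 and 2.30 in log2(FPKM + 1). PTK2B, a kinase related to focal adhesion kinase that the alpha and gamma proteins bind, was below the level limit of the stricter rule, with 0.01, 0.18 and 0.49 FPKM at 24 h. By the low-level rule 12 of the 13 partners qualified. PTK2B and CYFIP2 were called higher at both doses of 24 h (background 7.57% and 12.8%). At 200 nM 48 h PTK2B was called higher (background 3.99%), and at 100 nM 48 h CYFIP2 was called lower (background 3.68%). PTK2, its paralogue, had 67.69, 70.57 and 79.81 FPKM.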

How the data were processed

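RNA of 6 libraries of MDA-MB-231 cells, 1 per condition, was sequenced. The deposited values are FPKM per gene with 2 decimals, made by the authors. Bowtie2, RSEM and hg19 are named in the submitters' processing notes, and versions are not given in the sources used here. Symbols came from NCBI Gene IDs (16585 of 16623 matched). Changes were log2(FPKM + 1) or, for low levels, log2(FPKM + 0.05) differences from DMSO of the same time, with Python 3.11.15, numpy 2.4.6 and pandas 2.3.3. Calls needed a 2-fold change and at least 1 FPKM, or 0.1 FPKM, in either library. With 1 library per condition no test was made. Depth was estimated from steps of low values of 256 to 307 genes with transcripts of 500 to 1500 bases, of which 69.3% to 78.2% came within 0.2 of a whole fragment. It is approximate and covers counting only. Promoters are from RefSeq (GRCh38.p14) and transcripts from GENCODE release 29. Named members had at least 0.5 FPKM, were the top 3 of a cluster, were of C-type or were called at both doses of a time. Genes outside the rule were named after their values were seen. Members and lists were chosen with earlier results of these data known. Other pseudocounts, filters, scales and folds were tried.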

Additional observations from a re-analysis of the deposited data

Results flagged for a closer look

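Several results moved one way at both doses of 24 h and the other way at both doses of 48 h, each against DMSO of the same time. With 1 library per condition the difference between the times was not tested. The alpha sum was higher at 24 h (log2 ratio 1.38 at 100 nM and 1.59 at 200 nM) and lower at 48 h (-0.85 and -0.05). The gamma sum was lower at 24 h (-0.25 and -0.54) and higher at 48 h (0.20 and 0.08). In log2(FPKM + 0.05), PCDHA9 was at 0.68 and 0.95 at 24 h and -0.81 and -0.49 at 48 h. PCDHGA1 was at -1.31 and -1.47, then 1.03 and 0.74. PCDHGB2 was at -0.19 and -0.73, then 0.01 and 0.36. PCDHGC4, at or below 0.09 FPKM, was at -1.0 and -1.49 at 24 h, and at 48 h its DMSO library was listed at 0.
These signs rest on the libraries labelled DMSO 48 h and 100 nM 48 h, whose order in the genes called higher at 24 h goes against their labels. With an exchange of the 2, the gamma sum (12.87 and 14.80 FPKM), PCDHGA1 (0.16 and 0.38 FPKM) and PCDHGC4 (0.00 and 0.05 FPKM) would be lower than DMSO at both times. The alpha sum (0.27 and 0.15 FPKM) and PCDHA9 (0.23 and 0.11 FPKM) would be higher at both times. PCDHGB2 (2.62 and 2.64 FPKM) would be lower than DMSO at 100 nM 48 h and higher at 200 nM 48 h. Against DMSO 24 h the 48 h values were 0.59 and 1.38 for the alpha sum, 0.06 and -0.06 for the gamma sum, 0.09 and 0.42 for PCDHA9, -0.13 and -0.43 for PCDHGA1, 0.13 and 0.47 for PCDHGB2 and -0.49 and -0.81 for PCDHGC4, so the alpha sum, PCDHA9, PCDHGA1 and PCDHGC4 then kept the sign of 24 h.
The 2 DMSO libraries differed by 1.43 for the alpha sum, -0.14 for the gamma sum and -1.16 for PCDHGA1 (log2, 48 h against 24 h), and their part in these differences was not tested.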

How the results depend on the processing

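No paired analysis was possible because no condition had a second library, and for the same reason no library could be left out. The 4 comparisons are taken below in the order 100 nM then 200 nM, with 24 h before 48 h. Of the 80 changes of named members, 1 took the opposite sign under another pseudocount or scale, and its size was 0.02 on the log2 scale. Against DMSO 24 h, 12 of the 40 changes at 48 h took the opposite sign, among them PCDHGA1 in the third comparison (-0.128), the 1 called change that did. By the stricter rule, PCDHB13 was the 1 member lower in the second comparison with a pseudocount of 0.1 or 0.01 or in TPM.

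Counts by the low-level rule were 1, 1, 1 and 0 higher and 2, 5, 2 and 0 lower. With a pseudocount of 1, which shrinks the changes of low genes, each count was 0. At 1.5-fold they were 3, 2, 4 and 2 higher and 5, 9, 4 and 3 lower. Shares over all genes were not computed under the alternatives of this paragraph, so their counts are not set beside a background. In TPM the higher counts were 3, 2, 2 and 2, and 2 members were lower in the fourth comparison. With no filter 3, 2 and 1 members were higher in the first, the third and the fourth. With a pseudocount of 0.01, 2 were higher in the second and 1 was lower in the fourth. In the third, the lower count was 0 with at least 0.2 FPKM in either library and 1 with median-of-ratios scaling. Against DMSO 24 h, an alternative chosen after seeing the data, the 48 h counts were 4 higher and 1 lower for the low dose, with 2 and 1 for the high dose.

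Cluster medians and sums (log2) moved by over 0.2 mainly in the alpha cluster, whose members are nearest to 0. Its median at 200 nM with a pseudocount of 1 was 0.014 for each time, with 0.01 it was 0.592 and 0.792, and in TPM it was 0.483 and 0.482. PCDHA9, its 1 gene with at least 0.1 FPKM, stood at 0.678, 0.951, -0.807 and -0.485 in the 4 comparisons. With 1 added to the sum the first 3 alpha ratios were 0.196, 0.241 and -0.143. Without PCDHA9 the 48 h alpha ratios were 0.000 and 1.459, and against DMSO 24 h they were 0.585 and 1.379. The beta median in the first comparison was 0.283 over members with at least 0.1 FPKM. With a pseudocount of 1 the beta and gamma medians in the second were -0.051 and -0.041, and the gamma median in the third was 0.042. Without PCDHGB1 the gamma ratio in the first was -0.482. Against DMSO 24 h the beta ratios of 48 h were 0.540 and 0.589.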
